A study of Mus musculus with 6 samples.

Results

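The genes described here encode secreted proteins that hold back or strengthen Wnt signalling. They are the secreted frizzled-related proteins Sfrp1, Sfrp2 and Frzb, the Dickkopf proteins Dkk2 and Dkk3, the Wnt inhibitory factor Wif1 and the R-spondins Rspo1, Rspo2 and Rspo3. These 9 genes, of 18193 measured, were chosen by symbol with earlier results of the same arrays known, and the contrast between the cell types was part of that choice. Their differences are therefore given as a description, with no p-values, and the count of those that passed the fit over all genes is given only beside the share of all genes that did. All 9 were found, through 17 probe sets that the platform annotation assigns to a single gene. Each gene is represented by its brightest probe set (by mean signal), and the others are set beside it.

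Expression was measured on Affymetrix mouse arrays of embryonic fibroblasts, mesenchymal cells grown out of embryos, here of the C57BL/6 strain at 14 days of gestation and of pooled sex. There were 3 arrays of wild-type cells (MEF-WT) and 3 of cells labelled as an abl/arg knockout (MEF-DKO), that is, lacking the products of Abl1 (c-Abl) and Abl2 (Arg), a pair of non-receptor tyrosine kinases. Both were cultured in DMEM with 10% heat-inactivated fetal bovine serum. The labels name no Cre, transgene or clone, do not say whether the cells were primary or immortalised, and give no culture or embryo of origin for single arrays. Every error below is therefore the spread between arrays, and this may be technical.

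Wnt proteins bind frizzled receptors together with the co-receptors Lrp5 and Lrp6, which stabilises beta-catenin and switches on its target genes, or they act through frizzleds and the receptors Ror1, Ror2 and Ryk without beta-catenin. Secreted frizzled-related proteins and Wif1 bind Wnt proteins outside the cell, and Dickkopf proteins of the Dkk1 type bind Lrp5 and Lrp6. R-spondins bind Lgr4, Lgr5 or Lgr6 and remove the ubiquitin ligases Znrf3 and Rnf43 from the cell surface, so that more frizzled receptor stays there. Fibroblasts and other mesenchymal cells are a known source of several of these proteins in developing limbs, skin, lung and bone.

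Array medians ran from 13.4 to 14.7 in linear signal units, and this level is used below as a rough floor, since no detection calls were used. The lowest correlation of 2 arrays of a group was 0.998 across genes and the highest between the groups 0.904; genes are not independent replicates. The direction of the targeted genes depended on the probe set and the scaling. Abl1 averaged 184.8 ± 4.46 against 169.8 ± 8.22 in the knockout-labelled group (SD, 3 arrays each; limma adjusted p = 0.0933), and Abl2 averaged 256.1 ± 9.30 against 254.1 ± 11.9 (limma adjusted p = 0.874). Under hybridization spike scaling both passed as lower (-0.37 with an adjusted p of 0.000303 and -0.27 with 0.00347 by limma), and under poly-A spike scaling both passed as higher (0.38 with 0.000409 and 0.50 with an adjusted p of 1.68e-06). Both dimmer probe sets of Abl1 had higher values in the knockout-labelled group, with log2 differences of 0.28 (95% interval 0.12 to 0.44) and 0.21 (0.12 to 0.31). Where the probe sets lie relative to the deleted parts was not analysed here, and a probe set outside them checks nothing. Of 12 fibroblast marker genes 9 passed as higher and 2 as lower in the arrays labelled knockout (limma adjusted p under 0.05). Over all genes 24.3% passed as higher and 35.5% as lower. Lum, at 4.81 in wild type and 8.04 in the other group, was among the 9 higher genes. Thy1 and Lum lay under the array median on all 6 arrays, Pdgfra was at 9.99 in wild type, and Col1a2 and Col3a1 were at 9.71 and 14.9 in the arrays labelled knockout, so neither group showed the full marker set. In bulk RNA, fewer cells of a type and less RNA per cell cannot be told apart.

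The frizzled-related proteins are described first. They carry a cysteine-rich domain like the Wnt-binding domain of frizzleds. Sfrp1 had signals of 22.5, 16.2 and 22.4 on the wild-type arrays and of 4773, 5632 and 5771 on the arrays labelled knockout. The wild-type values were just above the array medians, those of the other group were far above them, and the groups did not overlap. The means were 20.4 ± 3.63 and 5392 ± 540 (SD, n = 3 each), a difference of 7.22 ± 0.08 (SE) on the log2(signal + 16) scale, on which changes from near the floor are understated.

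Frzb, also known as Sfrp3 and best known from cartilage and the developing limb, was at 7.38, 6.40 and 6.33 in wild type and at 89.2, 90.8 and 74.0 in the arrays labelled knockout. All wild-type arrays lay under their medians and all arrays labelled knockout lay above theirs. The log2(signal + 16) difference was 2.14 ± 0.08 (SE). Sfrp2, a close relative of Sfrp1 that is abundant in many embryonic mesenchymal tissues, was at the floor in both groups, with signals of 2.86 to 3.37 in wild type and 3.06 to 3.45 in the arrays labelled knockout. These ranges overlapped, and the log2 difference of 0.02 had a 95% interval of -0.03 to 0.06.

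The stretch before the start site is shown for Frzb, the only one of the higher genes with an entry in the RefSeq promoter table used, and for its relative Sfrp2, which stayed at the floor. Each line holds the 250 bases upstream of the start site on the gene's own strand (GRCm38.p6, from RefSeq), with capitals for the motif letters searched.
Frzb, chr2:80447397-80447646, minus strand: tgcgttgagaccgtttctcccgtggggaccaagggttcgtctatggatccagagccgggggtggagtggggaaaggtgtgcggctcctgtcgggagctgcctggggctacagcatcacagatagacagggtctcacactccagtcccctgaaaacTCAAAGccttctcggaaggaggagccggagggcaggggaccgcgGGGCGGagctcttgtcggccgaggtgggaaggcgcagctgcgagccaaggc
Sfrp2, chr3:83766071-83766320, plus strand: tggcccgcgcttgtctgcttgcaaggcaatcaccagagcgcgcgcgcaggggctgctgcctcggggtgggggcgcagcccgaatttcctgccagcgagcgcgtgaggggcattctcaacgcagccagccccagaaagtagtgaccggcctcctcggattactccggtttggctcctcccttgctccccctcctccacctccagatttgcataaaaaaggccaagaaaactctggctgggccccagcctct
The motifs searched on both strands were the core of the site of TCF/LEF factors, the partners of beta-catenin (CTTTGA), the TATA box (TATAAA), the CCAAT box (CCAAT) and the GC box (GGGCGG). The Frzb window held a TCF/LEF core on the opposite strand, 95 to 90 bases before the start, and a GC box 51 to 46 bases before it, and the Sfrp2 window held none of the 4 motifs. Of 32851 windows of the same length, 13.8% held the TCF/LEF core and 32.7% the GC box. Both windows had 16 CpG dinucleotides, with an observed-to-expected ratio of 0.64 in each against a median of 0.37 over all windows. So the Frzb and Sfrp2 windows were alike in base composition. Entries existed for 5 of the 9 genes: Frzb, Sfrp2, Dkk2, Rspo1 and Wif1. The windows of Dkk2, Rspo1 and Wif1 held no TCF/LEF core. Those of Dkk2 and Wif1 each held 1 match to the TATA box and 2 GC boxes, and Dkk2 also held 1 CCAAT box. The TATA match of Dkk2 lay 32 to 27 bases before the start on the gene's own strand. That of Wif1 lay 232 to 227 bases before the start on the opposite strand. Rspo1 held none of the 4 motifs. Over all windows 12.37% held the TATA box and 33.85% the CCAAT box. A match of such short letters is a description and not a binding site.

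Dkk3 is the Dickkopf protein that stands apart from the others in sequence, and it is not generally found to bind Lrp5 and Lrp6. It was at 9.21, 4.24 and 5.26 in wild type and at 257.3, 244.0 and 253.4 in the arrays labelled knockout. The 3 higher values lay close together, with an SD of 2.73% of their mean, whereas the wild-type values were all under the array medians. The log2(signal + 16) difference was 3.59 ± 0.09 (SE). Dkk2, which binds Lrp6 and can weaken or, in some settings, strengthen the signal, was at 2.56 to 2.82 in wild type and 2.74 to 3.13 in the arrays labelled knockout. The ranges overlapped at the floor, and the 95% interval of the log2 difference was -0.03 to 0.05. Wif1, which binds Wnt proteins through its WIF domain, was at 2.53, 3.36 and 2.56 in wild type and at 1.79, 1.77 and 2.17 in the arrays labelled knockout. The groups did not overlap, but all values were under the array medians. The log2(signal + 16) difference of Wif1 was -0.07 ± 0.02 (SE), and -0.002 under poly-A spike scaling.

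Among the R-spondins, Rspo2, which is required for limb and lung development in the mouse, was at 3.40, 3.83 and 5.69 in wild type and at 1205, 1274 and 1358 in the arrays labelled knockout. The wild-type values were at the floor and the others had an SD of 5.97% of their mean. The difference was 6.00 ± 0.07 (SE) on the log2(signal + 16) scale. Rspo3, which is needed for the placental and embryonic vasculature in the mouse, was at 2.96, 4.37 and 3.10 in wild type and at 323.3, 383.6 and 316.0 in the arrays labelled knockout, a difference of 4.19 ± 0.09 (SE). The groups did not overlap for either gene. Rspo1, known for its part in ovary development, was at 2.83 to 3.06 and 2.88 to 3.12, at the floor in both groups, with a 95% interval of -0.04 to 0.04 for the log2 difference.

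**Figure D1:**
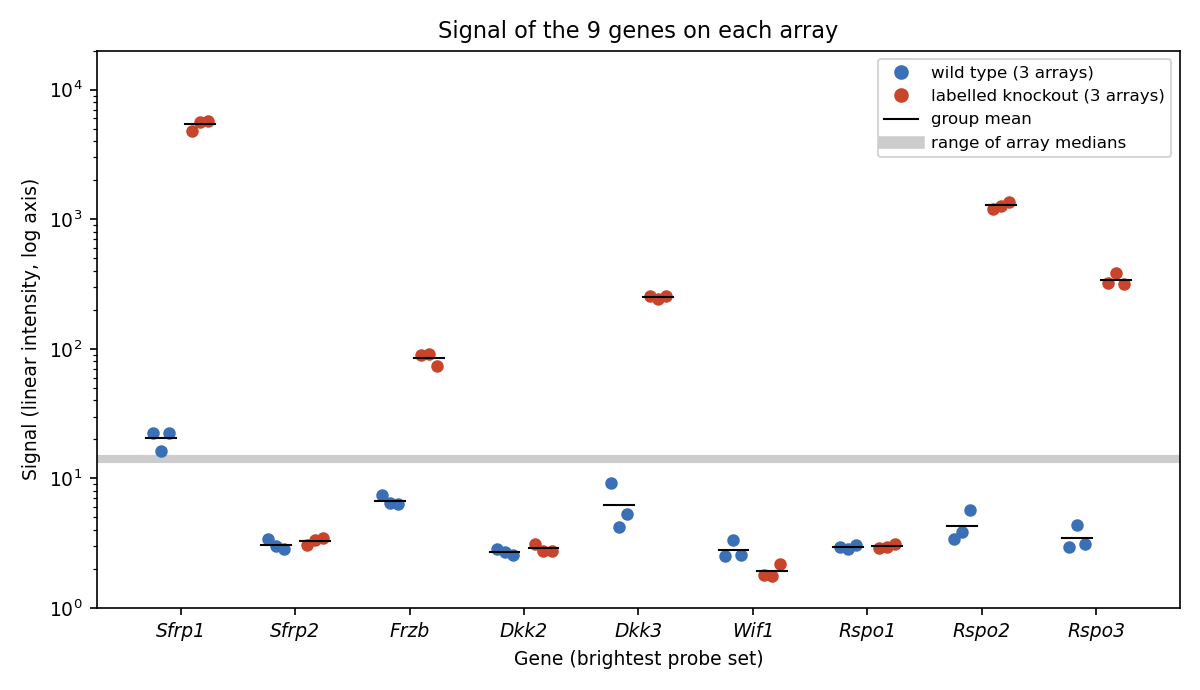
Linear signal on a log axis of the brightest probe set of each of the 9 genes, one point per array, with wild-type arrays in blue, arrays labelled knockout in red, a dash at each group mean (n = 3) and a grey band at the array medians of 13.4 to 14.7. Sfrp1, Frzb, Dkk3, Rspo2 and Rspo3 lie above the band in the arrays labelled knockout, and Sfrp2, Dkk2, Wif1 and Rspo1 lie under it on all 6 arrays.

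The 9 genes thus fell into 2 sets that cut across the families. On all 3 arrays labelled knockout 5 genes lay above the array median (Sfrp1, Frzb, Dkk3, Rspo2 and Rspo3), and 4 lay under it on all 6 arrays (Sfrp2, Dkk2, Wif1 and Rspo1). In wild type 8 of the 9 lay under the median on all 3 arrays by their brightest probe set, Sfrp1 being the exception. Other Sfrp1 probe sets lay under it there, as given below. The brightest probe set was picked by the mean over all 6 arrays, so the arrays labelled knockout weighed in that choice. In wild type the other probe sets of Rspo2, Rspo3 and Dkk3 were brighter, at 17.1, 6.56 and 9.07 against 4.31, 3.48 and 6.24. That of Rspo2 lay above the median on all 3 wild-type arrays. Antagonists and R-spondins, which act in opposite directions on the signal, were both among the higher genes. By limma with Benjamini-Hochberg adjustment over all genes, 5 members passed as higher, 1 as lower (Wif1) and 3 did not pass, where 59.8% of all 18193 genes passed at an adjusted p under 0.05 (24.3% as higher and 35.5% as lower). The 5 higher members also passed a change of at least 2-fold, which 7.06% of all genes did in that direction and 8.85% in the other. In 5 members all arrays labelled knockout lay above all wild-type arrays, against 25.7% of all genes, and in 1 they lay below, against 39%. These counts follow from how the genes were chosen and nothing is read from them.

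Other probe sets of the same genes gave a second reading, and 5 of the 9 genes had more than 1. For Sfrp1, 3 of the 4 others were close to the main one: differences of 7.79, 7.22 and 6.54 with signals of 5211, 3937 and 1640 in the arrays labelled knockout. In wild type these averaged 7.69, 10.7 and 1.78. The first and last lay under the median on all 3 wild-type arrays, and the middle one on 2. The fourth, whose name ends in x for probes that may bind other transcripts, went from 17.7 to 338.8, a log2 difference of 3.38. The second Dkk3 probe set went from 9.07 to 107.8, a log2 difference of 2.30, and its arrays did not overlap between the groups. The second Frzb probe set was dimmer: 3.48, 3.18 and 3.70 in wild type and 12.6, 20.3 and 14.7 in the arrays labelled knockout, a difference of 0.70 ± 0.07 (SE), with 1 of the 3 higher arrays still under its median.

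The R-spondins disagreed more between probe sets. The second Rspo2 probe set read 18.5, 15.6 and 17.3 in wild type and 19.9, 16.1 and 16.6 in the arrays labelled knockout. The groups overlapped, and the log2 difference was 0.02 with a 95% interval of -0.14 to 0.17, beside 6.00 for the brighter one. The second Rspo3 probe set averaged 6.56 ± 0.33 and then 14.8 ± 3.35 (SD, 3 arrays each), which is 0.44 apart on that scale, with 2 of the 3 arrays labelled knockout under their median. Which transcripts each probe set reads was not analysed here. With probe sets averaged, Rspo2 was at 3.01, Rspo3 at 2.32 and Frzb at 1.42. Sfrp2, Dkk2, Wif1 and Rspo1 had a single probe set each, so their floor values rest on one reading.

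**Figure D2:**
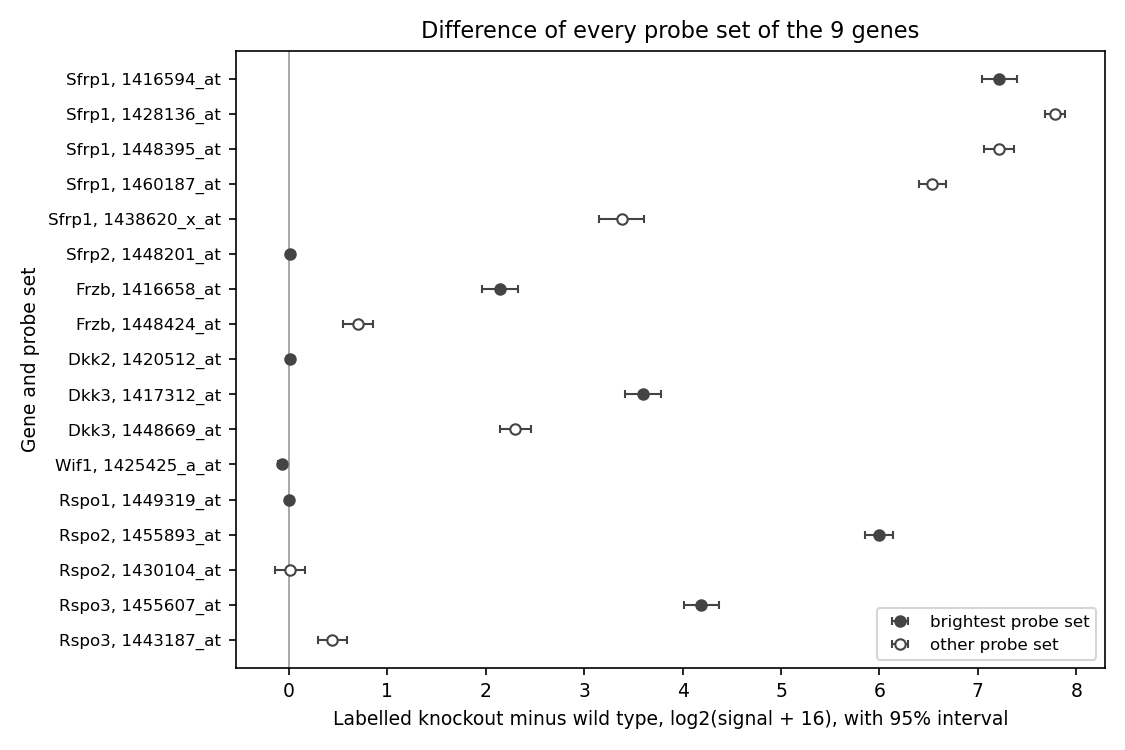
Difference between the arrays labelled knockout and wild type, on log2(signal + 16), of all 17 probe sets of the 9 genes with the 95% interval from limma, filled for the brightest probe set of a gene and open for the others. The Sfrp1 probe sets lie at 3.38 to 7.79, whereas those of Rspo2 lie at 6.00 and 0.02 and those of Rspo3 at 4.19 and 0.44.

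The genes whose pattern over the 6 arrays was most like that of 2 members were found by the root mean square difference on the log2(signal + 16) scale, each gene taken relative to its own wild-type mean. For Sfrp1 these were the aldehyde oxidase gene Aox3 (0.12), the flavin monooxygenase gene Fmo2 (0.14) and the lipid phosphatase gene Plpp3 (0.14). Each was at the floor in wild type, and their differences were 7.29, 7.23 and 7.18. For Rspo2 they were Nsg1, which encodes a protein of neuronal vesicles (0.11), Pdgfra, a receptor for platelet-derived growth factors (0.12), and the methyltransferase gene Inmt (0.16). With 2 groups that hardly vary within, this likeness reflects mostly the size of the difference.

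The remaining members of the same families were also on the arrays, and they are named for their family and not by the size of their change. Sfrp5 was at 12.2 in both groups. Sfrp4 was higher in the arrays labelled knockout but close to the floor, at 11.02 and 15.8 (limma adjusted p = 0.00303). Dkk1 was at 3.09 and 2.75, Dkk4 at 3.47 and 3.56, and Rspo4 at 4.50 and 4.52 in wild type and in the other group, none of them passing. The Dickkopf-like gene Dkkl1 passed as lower near the floor, at 11.05 and 5.35 (-0.34; limma adjusted p = 0.000112). So 5 genes of these families passed by their brightest probe set with a change of at least 2-fold on the log2(signal + 16) scale. They were Sfrp1 and Frzb among the frizzled-related genes, Dkk3 among the Dickkopf genes, and Rspo2 and Rspo3 among the R-spondins. The linear means of Dkkl1, 11.05 and 5.35, also differed by more than 2-fold, but near the floor, where that scale understates changes.

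In the wider list of secreted or surface modulators, 6 of 14 genes rose, 1 fell and 7 did not pass, where 24.3% of all genes rose, 35.5% fell and 59.8% passed in either direction. The median difference was 0.01, beside -0.03 over all genes. The count that passed was thus no larger than the share over all genes. Igfbp4, an IGF-binding protein that also binds Lrp6 and frizzled 8, went up by 4.29, from 431.6 ± 62.9 to 8691 ± 375 (SD, 3 arrays each; limma adjusted p = 4.62e-13). Notum, an enzyme that inactivates Wnt proteins by removing their lipid, rose from 27.2 ± 0.79 to 322.2 ± 26.3 (2.97; limma adjusted p = 2.98e-12). Trabd2b, a membrane protease that cleaves Wnt proteins, rose by 1.21 and Apcdd1, a membrane-bound Wnt inhibitor, by 0.39. Igfbp4 and Notum were read only by probe sets with names ending in x, s or a, a class left out in an alternative run. They have no value without that class. The Apcdd1 value also came from a probe set of that class, with a name ending in x. It was 0.19 with probe sets averaged, 0.23 without probe sets of that kind and 0.86 under poly-A spike scaling, and its call was lost under hybridization spike scaling (0.15; limma adjusted p = 0.141). With poly-A spike scaling 11 genes of this list were higher and 1 lower, and with hybridization spike scaling 3 and 6.

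Of 9 measured receptors and surface partners of the R-spondins and Dickkopf proteins, 1 rose, 6 fell and 2 did not pass, where 24.3% of all genes rose and 35.5% fell. The list median was -0.39. Lrp6, named for its nearness to the threshold after its value was seen, was one of those that fell (-0.13; limma adjusted p = 0.0491), and 5 or 6 genes fell with each array left out. Kremen1, which takes Lrp6 off the cell surface together with Dkk1, had 72.4 ± 1.79 in wild type against 25.1 ± 1.70 (SD, 3 arrays each), a fall with a log2 value of -1.11 (limma adjusted p = 3.49e-08). Znrf3, the ubiquitin ligase that R-spondins remove, went from 116.3 ± 5.78 to 69.9 ± 13.6 (-0.63; limma adjusted p = 0.000121), but under poly-A spike scaling it was at -0.18 and did not pass (limma adjusted p = 0.152). Lrp4, a receptor of sclerostin, fell by 0.64 and Lgr6, an R-spondin receptor, rose by 0.69, both from dim signals. With probe sets averaged Kremen1 was at -0.43 and Lgr6 at 0.36, and under poly-A spike scaling they were at -0.72 and 1.05, with Lrp4 at -0.43. Under poly-A spike scaling 3 receptor genes were higher and 2 lower (median 0.05), and under hybridization spike scaling 1 and 8.

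Of 19 Wnt ligand genes, 2 rose, 6 fell and 11 did not pass. The share that fell was near the 35.5% of all genes, and fewer passed than the 59.8% of all genes; 8 ligand genes lay under the array medians throughout. Wnt5a, which mostly signals without beta-catenin, rose by 3.31, from 3.41 ± 1.20 to 177.4 ± 19.2 (SD, 3 arrays each; limma adjusted p = 9.25e-12). Wnt4 fell from 179.6 ± 19.6 to 17.6 ± 3.71 (-2.54; limma adjusted p = 2.14e-10), and Wnt11 and Wnt6 fell by 1.01 and 0.72. With probe sets averaged Wnt5a was at 1.74, and under poly-A spike scaling Wnt6 was at -0.30. The split of the ligands turned with the scaling: 9 higher and 4 lower under poly-A spike scaling, 1 and 12 after median centring, 1 and 9 under quantile scaling, and 1 and 14 under hybridization spike scaling. Of 14 frizzled and co-receptor genes, 8 rose and 5 fell, beside the same 24.3% and 35.5% over all genes. Fzd8 (2.15), Fzd5 (2.05) and Fzd1 (1.93) rose and Fzd3 fell by 2.13. With probe sets averaged these 4 receptor genes were at 1.42, 1.06, 1.01 and -1.02.

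Of 16 core genes of the pathway, 5 rose and 8 fell (24.3% and 35.5% over all genes), among them the Wnt acyltransferase gene Porcn (1.50), the Wnt carrier gene Wls (0.88) and the kinase gene Gsk3b (-0.92). Btrc was at 1.08, but other probe sets of it passed in the opposite direction, and with probe sets averaged it was at 0.04 (limma adjusted p = 0.467). A dim Gsk3b probe set also passed in the opposite direction, at 0.16, and with probe sets averaged Gsk3b was at -0.36. Under poly-A spike scaling Gsk3b was at -0.40 and Wls at 1.40. The only Porcn probe set was of the less specific class, and without that class Wls was at 1.04. The core split was 9 and 3 under poly-A and 4 and 11 under hybridization spike scaling. Of 13 measured target genes of beta-catenin, 4 rose and 5 fell (again beside 24.3% and 35.5%), with a median of 0.03. Ccnd1, cyclin D1, rose by 3.50 and Fosl1, an AP-1 subunit, by 1.63, while Ccn4, a matricellular protein, fell by 1.60 and the Notch ligand gene Jag1 fell by 1.45, or to -0.81 with probe sets averaged. The feedback gene Axin2, the most widely used readout of beta-catenin, was at 15.0 ± 0.87 and 17.4 ± 2.06 (SD, n = 3 each) and did not pass (limma adjusted p = 0.133); it is named as background and not by its rank. The target split was 9 and 2 under poly-A and 2 and 6 under hybridization spike scaling.

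**Figure D3:**
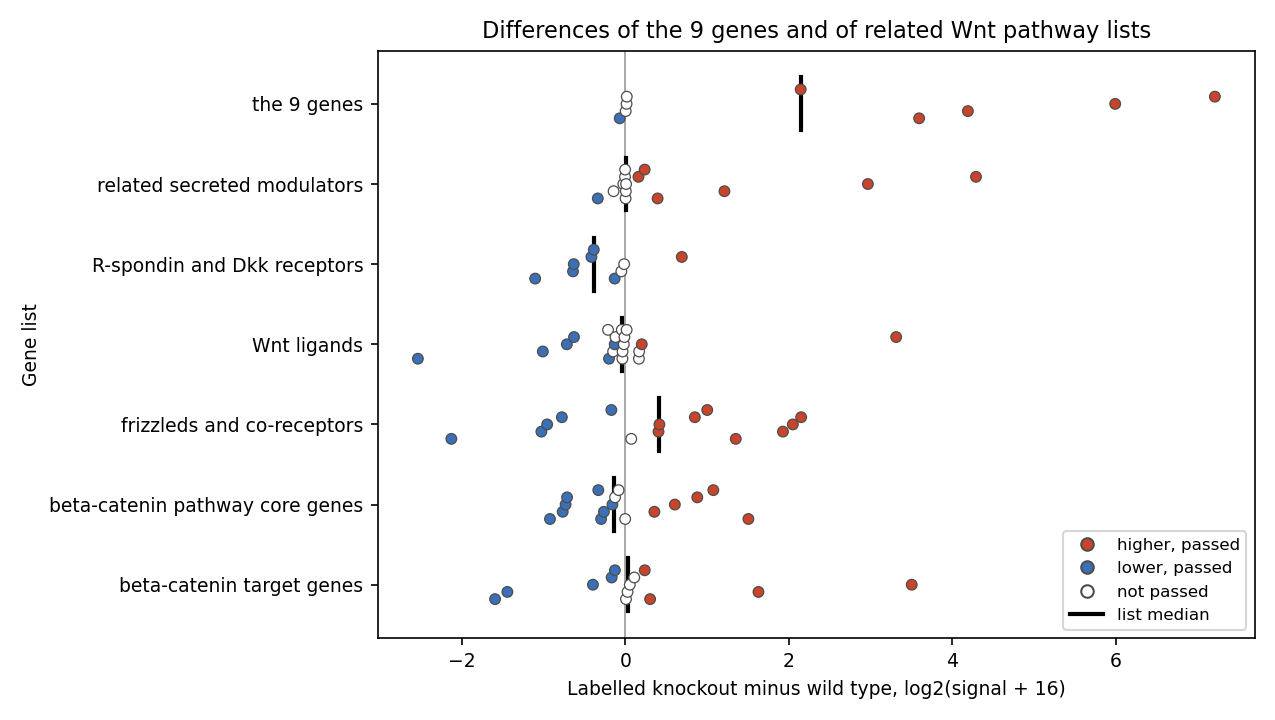
Difference between the arrays labelled knockout and wild type, on log2(signal + 16), of each of the 9 genes and of each measured gene in 6 related lists, red for higher and blue for lower at an adjusted p under 0.05, white for not passed, with a bar at the list median. The median of the 9 genes was 2.14, and those of the related lists ran from -0.39 for the receptors to 0.41 for the frizzleds and co-receptors.

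The scale of the arrays and some markers of other cells differed between the groups. Mean log2 signals of the poly-A spike controls differed by -0.54 (arrays labelled knockout minus wild type) and those of the hybridization controls by 0.28 (two-sided exact permutation test p = 0.1 for each, the smallest that 3 arrays against 3 can give). The 5 higher members stayed higher under both scalings: Sfrp1 at 7.63 and 6.999, Rspo2 at 6.32 and 5.83, Rspo3 at 4.50 and 4.03, Dkk3 at 3.91 and 3.43, and Frzb at 2.45 and 1.99 under poly-A and hybridization spike scaling. The 3' to 5' log2 ratio of the beta-actin control was 0.47 ± 0.03 in wild type and 0.36 ± 0.01 in the other group (SD, n = 3 each; exact p = 0.1), and its part in these differences was not tested.

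Frzb is also made by cartilage cells. The marker counts below stand beside 24.3% of all genes that rose and 35.5% that fell. Of 8 cartilage markers, 1 rose (Sox9, from 31.6 to 128.1) and 1 fell (Matn3), 6 including Col2a1 and Acan lay under the array medians throughout, and the summed signal of the list was 86.1 to 89.9 in wild type and 158.4 to 186.3 in the arrays labelled knockout. Of 8 leukocyte markers, 3 rose (Cd14, Lyz2 and Cd68), while Ptprc, Adgre1, Tyrobp and Itgam lay under the medians. Csf1r, above the medians at 34.5 in wild type and 30.3 in the other group, did not pass. Its arrays labelled knockout all lay below its wild-type arrays. The sums of the list were 168.0 to 183.3 and 540.0 to 576.8. Cd14 alone went from 99.9 to 400.8. Of 6 muscle markers 3 fell, with sums of 152.8 to 187.7 in wild type and 58.7 to 67.6 in the other group. Tnnt2 alone went from 77.1 to 7.78. Of 7 epithelial markers 3 fell, with sums of 66.2 to 68.1 and 47.2 to 56.7. The genes that fell included Myog and Cldn4, which lay under the array medians throughout. No endothelial marker of 6 passed by limma, with sums of 38.4 to 46.2 and 34.9 to 41.9. The part of these markers in the differences of the 9 genes was not tested.

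**Figure D4:**
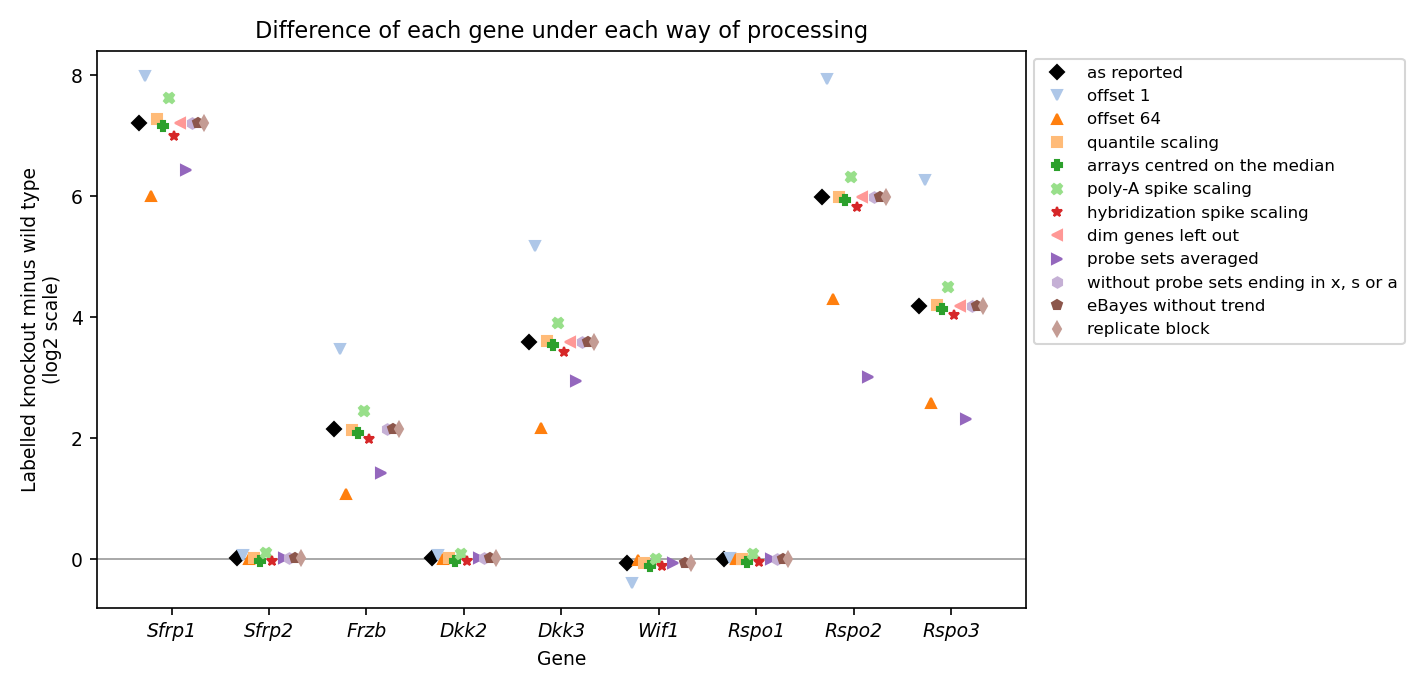
Difference between the arrays labelled knockout and wild type (log2 scale) of each of the 9 genes under the reported processing (black) and 11 alternatives. Sfrp1, Frzb, Dkk3, Rspo2 and Rspo3 stay above 0 wherever they were tested (Frzb from 1.07 to 3.47), while Sfrp2, Dkk2, Wif1 and Rspo1 stay between -0.39 and 0.10.

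The size of the differences depended on the offset added before the logarithm, since the wild-type values were near the floor. Frzb was at 3.47 with an offset of 1 and 1.07 with an offset of 64, Dkk3 at 2.17 and Rspo3 at 2.58 with an offset of 64, against 2.14, 3.59 and 4.19 with the offset of 16. Leaving out any one array moved Sfrp1 between 7.13 and 7.30, Rspo2 between 5.95 and 6.04 and Frzb between 2.10 and 2.22. A filter on dim genes (mean log2(signal + 16) of at least 6) kept 4 of the 9, Sfrp1, Dkk3, Rspo2 and Rspo3, each through the arrays labelled knockout, so the kept genes had to differ.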

How the data were processed

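Gene expression was measured with Affymetrix mouse arrays from biotin-labelled RNA, 6 µg of total RNA per sample per the labels' protocols. The authors deposited linear intensities, 1 for each probe set on each array. The submitters' processing notes name MAS5; how it was set and how arrays were scaled is not given in the sources consulted. Titles gave the groups and the replicate numbers.

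There were 45101 probe sets in all, 64 of them controls. With the platform annotation 34945 had 1 gene symbol, 932 several, and 9160 were unnamed here; 34741 were matched by Entrez number to RefSeq (GRCm38.p6), used for names and promoter sequences. Analyses used log2(signal + 16), and a gene's brightest probe set stood for it, and 18193 genes were fitted with limma 3.58.1 in R 4.3.3 (eBayes with trend, two-sided, Benjamini-Hochberg over all genes, threshold 0.05). Differences are knockout minus wild type. The fit was also run on simulated data with independent noise and few changed genes. That run does not test the scaling of the arrays or a case where most genes pass.

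The 9 members and all lists were chosen with earlier results of these data known. Named genes were the members, Abl1 and Abl2, the up to 4 called genes with the largest differences per related list, and the 3 nearest in pattern to Sfrp1 and to Rspo2; marker lists and remaining family genes were named as wholes or as background. Alternatives were other offsets, other scalings, a dim filter and averaged probe sets. Further ones were leaving out probe sets with names ending in x, s or a, no trend, a replicate block and leaving out each array. The number of arrays limits the precision.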

Additional observations from a re-analysis of the deposited data

How the results depend on the processing

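Sfrp1, Frzb, Dkk3, Rspo2 and Rspo3 were higher under every alternative in which they were tested, Frzb being untested with dim genes left out. Wif1 lost its call without the trend and under poly-A spike scaling, where its difference was -0.002. Its only probe set was of the less specific class, so Wif1 was not tested without that class. Sfrp2, Dkk2 and Rspo1 passed as higher under poly-A spike scaling, and Rspo1 passed as lower with arrays centred on the median; that scaling moves all genes of an array together. With all 9 members tested, 5 (without the trend) to 8 (poly-A spikes) passed, 6 as reported; with dim genes left out 4 were tested and passed, having been kept through the arrays labelled knockout. Over all genes 40.6% of the calls were rises, against 79.9% under poly-A spike scaling, 21.2% under hybridization spike scaling and 29.4% with arrays centred on the median. The median of all genes shifted by 0.16 under poly-A spike scaling. Calls were 12 of the related modulators and 13 of the Wnt ligands under poly-A spike scaling, 13 and 15 of the Wnt ligands with arrays centred on the median and under hybridization spike scaling, and 3 each of the modulators, receptors and Wnt ligands with dim genes left out, where fewer genes were tested. Abl1 and Abl2, below 0 and not passing as reported, passed as lower under hybridization spike scaling (-0.37 and -0.27), and Abl1 also after median centring (-0.16; limma adjusted p = 0.0162). Abl1 turned to 0.38 under poly-A spike scaling and to 0.13 for averaged probe sets. Abl2 turned to 0.015 under quantile scaling and 0.50 on poly-A spikes, and ran from -0.044 to 0.019 with each array left out, being above 0 without wild-type replicate 2 (0.006) or 3 (0.001) or knockout replicate 3. The cause of these shifts was not tested. With each array left out, 10229 to 10596 genes passed. The replicate numbers do not establish pairing: deviations of same-numbered arrays correlated at 0.04, 0.12 and 0.17, though each array correlated best with its own number. With the replicate number as a block 10944 genes passed against 10873, and 6 members as before.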
